A study of Arabidopsis thaliana with 8 samples.

Results

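The DNA windows recovered by TMF, an ALOG protein of tomato, were compared with those recovered by LSH3, an ALOG protein of Arabidopsis, in the same Arabidopsis genomic DNA. The TMF list held 13667 windows and the LSH3 list 17263, together 30930 of the 116684 windows of the 7 proteins in the series. A window counted as shared when it overlapped a window of the other list by at least 1 bp. By this rule the TMF list divided into 11499 shared windows and 2168 without LSH3, and the LSH3 list into 11662 shared windows and 5601 without TMF. The 2 shared counts differ because a window can touch several of the other list: 203 TMF windows touched 2 LSH3 windows and 1 touched more, and 42 LSH3 windows touched 2 TMF windows.

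The series assayed tagged ALOG proteins by ampDAP-seq: each was synthesised in a cell-free transcription and translation system and used to pull down DNA extracted from Arabidopsis seedlings 2 weeks old. In this assay the DNA is extracted, and so carries no chromatin, and is then amplified, and so carries no methylation. TMF was therefore assayed on the genome of another species, outside tomato cells and without partner proteins, and LSH3 likewise without the partners of a plant cell. Of 3 replicates per protein only the consensus peaks were kept by the authors, which leaves 1 list per protein, no spread between replicates and no test of a difference between the proteins. Each window is 200 bp wide and carries no score, and the read depth is unknown. The LSH3 list is longer by 3596 windows, and a difference in depth or peak calling between the proteins cannot be told apart from a difference in what they bind. An input sample was not analysed here.

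ALOG proteins are plant transcription factors that share a conserved DNA-binding domain and act in shoot meristems, flowers and organ boundaries. Tomato TMF (TERMINATING FLOWER) holds back the floral transition of the shoot meristem and acts with BLADE-ON-PETIOLE proteins. LSH3, also known as ORGAN BOUNDARY1, is expressed at the boundaries between the shoot meristem and its lateral organs, where the NAC factor CUC1 activates it.

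Most windows of either protein had a counterpart in the other list, and the share was larger for TMF, whose list is shorter. LSH3 overlapped 84.1% of TMF windows (95% Wilson interval 83.5 to 84.7%, n = 13667), and TMF overlapped 67.6% of LSH3 windows (66.9 to 68.2%, n = 17263). These intervals, like those below, cover counting error only. Between whole chromosomes the overlap differed little. By chromosome, 83.6% (chromosome 5) to 84.4% (chromosome 2) of TMF windows had an LSH3 window, and 65.7% (chromosome 3) to 69.2% (chromosome 5) of LSH3 windows had a TMF window. After joining windows that touch, 11462 regions held both proteins, 2155 TMF alone and 5550 LSH3 alone.

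Between stretches of 1 Mb the overlap varied more, from 70.2 to 91.6% of TMF windows and from 54.3 to 93.1% of LSH3 windows. The balance between the lists shifted with gene density. In the 15 stretches of 1 Mb with under 100 protein-coding genes, TMF had 825 windows and LSH3 875, a ratio of 0.943. In the 10 stretches with 300 genes or more, TMF had 1337 and LSH3 1851, a ratio of 0.722. The TMF list was the longer one in 5 of the 15 gene-poor stretches and in none of the other stretches. LSH3 windows had a TMF partner in 76.8% of cases (73.9 to 79.5%) in the gene-poor stretches and in 62.5% (60.3 to 64.7%) in the gene-rich ones, while the share of TMF windows with an LSH3 partner was 79.6% (76.8 to 82.2%) and 84.9% (82.9 to 86.7%) in the same stretches.

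Shared windows were nearly superimposed. The centres of a shared TMF window and the nearest LSH3 window lay a median of 8 bp apart (quartiles 3 and 15 bp, n = 11499). They fell within 10 bp of each other in 61.3% of cases (60.4 to 62.2%) and within 20 bp in 83.2% (82.5 to 83.9%), and 464 pairs had identical centres. Only 68 pairs (0.591%) were more than 100 bp apart. Counted along the chromosome as LSH3 minus TMF, the offset averaged -0.577 ± 20.6 bp (SD over windows), with a median of 0 bp. The orientation of genes or binding sites was not used, so a shift tied to it could not be seen.

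**Figure D1:**
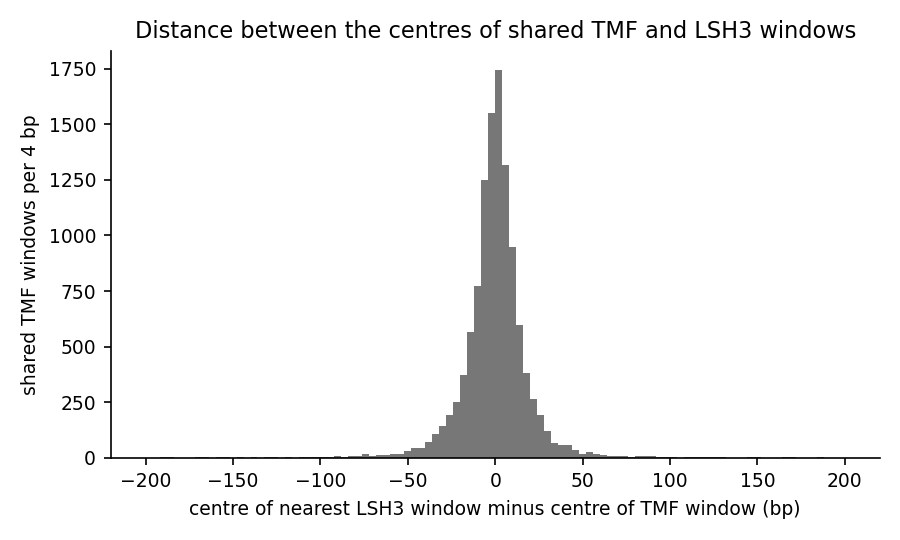
Signed distance in bp from the centre of each shared TMF window to the nearest LSH3 window centre (x axis) against the number of shared TMF windows per 4 bp (y axis). The 11499 pairs form 1 narrow peak at 0, with 83.2% of them within 20 bp.

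The pairing was tighter at sites that more ALOG proteins held. Where all of the other 5 lists (LSH1 and LSH2 of Arabidopsis and, as background, G1 of rice and LOS1 and LOS2 of the liverwort Marchantia) also had a window, 87.9% of pairs (86.7 to 89.0%, n = 3107) were within 20 bp. With 3 other lists the share was 81.6% (80.3 to 82.9%, n = 3498), with 1 other list 69.4% (64.4 to 73.9%, n = 359), and with none 62.1% (44.0 to 77.3%, n = 29). Pairs outside genes were within 20 bp in 85.9% of cases (84.7 to 87.1%) and pairs in gene bodies in 82.2% (81.4 to 83.0%).

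Few windows sat close to the 1 bp limit. Among shared TMF windows 9 overlapped LSH3 by 20 bp or less, and among TMF windows without LSH3 16 were separated from it by under 20 bp. For LSH3 the same counts were 67 and 71. The median gap from windows of 1 protein alone to the other list was 1982 bp for TMF (quartiles 693 and 4553 bp) and 2370 bp for LSH3 (quartiles 955 and 5237 bp). The gap expected from the density of the lists was not computed. Of TMF windows without LSH3, 19.8% (18.2 to 21.6%) were within 500 bp of a window of the other protein. For LSH3 windows without TMF this share was 13.7% (12.8 to 14.6%). LSH3 windows without TMF were more often clustered with windows of their own list. Another window of the same list had its centre within 500 bp for 16.3% of TMF windows without LSH3 (14.8 to 17.9%) and for 22.5% of LSH3 windows without TMF (21.4 to 23.6%). Among shared windows these values were 10.97% (10.4 to 11.6%) in the TMF list and 15.7% (15.1 to 16.4%) in the LSH3 list. The LSH3 list, which is longer, thus had the higher value for shared windows too, and the part played by list length was not tested.

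The windows of LSH3 alone were the most strongly placed inside genes. A window was counted in a gene body when its centre lay in one of 27444 protein-coding genes. This held for 70.9% of TMF windows without LSH3 (68.9 to 72.8%, n = 2168), for 80.6% of LSH3 windows without TMF (79.5 to 81.6%, n = 5601) and for 72.7% of shared windows (71.8 to 73.5%, n = 11499). TMF minus LSH3, the difference between the windows of 1 protein alone was -9.66 percentage points (95% Newcombe interval -11.9 to -7.51). Most of it lay in the interior of genes, 600 bp or more from either end, which held 45.1% of TMF windows without LSH3 and 54.3% of LSH3 windows without TMF (difference -9.28 points, -11.7 to -6.81). Inside genes but closer to an end the shares were 25.8% and 26.2%, a difference of -0.38 points whose interval (-2.52 to 1.82) includes 0.

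Outside genes the order was the opposite. TMF windows without LSH3 lay outside but within 1000 bp of a gene in 13.7% of cases, against 9.69% of LSH3 windows without TMF (difference 3.96 points, 2.36 to 5.64). Farther out the shares were 15.5% and 9.75% (difference 5.70 points, 4.04 to 7.45). Shared windows, with 13.9% and 13.4% in these positions, resembled the windows of TMF alone more than those of LSH3 alone. Pseudogenes held 5.21% of TMF windows without LSH3 (4.35 to 6.23%), 4.05% of LSH3 windows without TMF (3.57 to 4.60%) and 4.23% of shared windows (3.87 to 4.61%). Gene strand was not used here, so gene starts and gene ends are pooled.

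**Figure D2:**
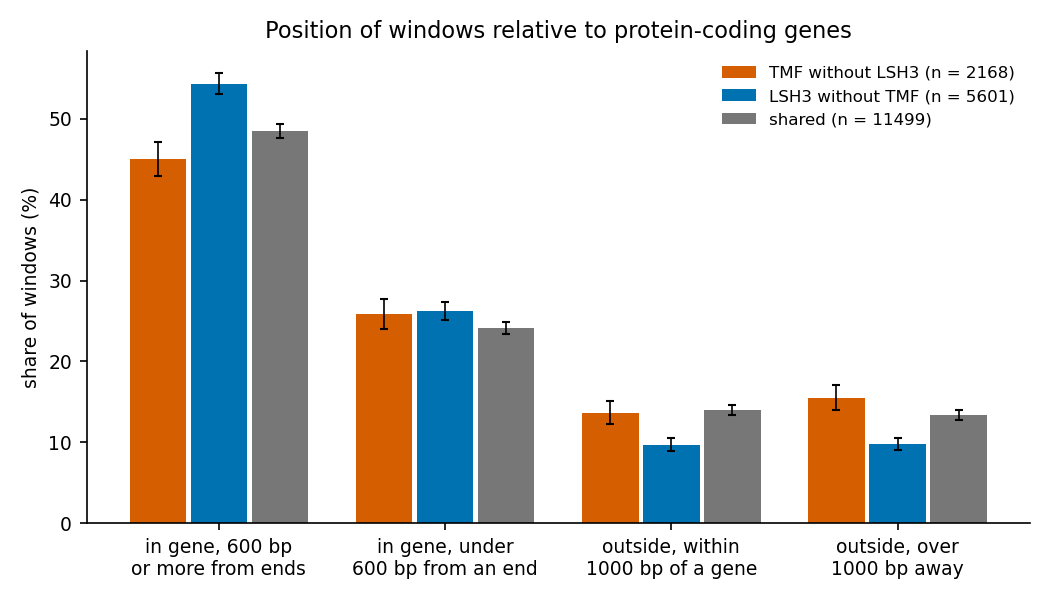
Share of windows (%, y axis) in 4 positions relative to protein-coding genes (x axis) for windows of TMF alone, windows of LSH3 alone and shared windows. Error bars are 95% Wilson intervals. The bar of LSH3 alone is the highest in the gene interior, at 54.3%, and the lowest in both positions outside genes.

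The windows of each protein alone were found in different lists of the remaining ALOG proteins. Only 80 TMF windows without LSH3 (3.69%) and 597 LSH3 windows without TMF (10.7%) were in no other list, against 29 shared windows (0.252%). LOS1 held 58.9% of TMF windows without LSH3 (56.9 to 61.0%) and 13.6% of LSH3 windows without TMF (12.8 to 14.6%), a difference of 45.3 points (43.0 to 47.5). LOS2 held 69.2% (67.3 to 71.1%) and 37.6% (36.4 to 38.9%), a difference of 31.6 points (29.3 to 33.9). G1, the shortest list, also held more of the TMF windows, 18.9% (17.3 to 20.6%) against 11.3% (10.5 to 12.1%).

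LSH1 was the reverse case. It held 26.8% of TMF windows without LSH3 (25.02 to 28.8%) and 42.4% of LSH3 windows without TMF (41.1 to 43.7%), a difference of -15.6 points (-17.8 to -13.3). LSH2, an Arabidopsis relative of LSH3, held similar shares of both sets. These were 67.3% of TMF windows without LSH3 (65.3 to 69.3%) and 68.1% of LSH3 windows without TMF (66.8 to 69.3%), a difference of -0.716 points whose interval (-3.06 to 1.58) includes 0. Shared windows were in every one of these lists more often than either set, from 34.99% in G1 to 93.3% in LSH2.

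**Figure D3:**
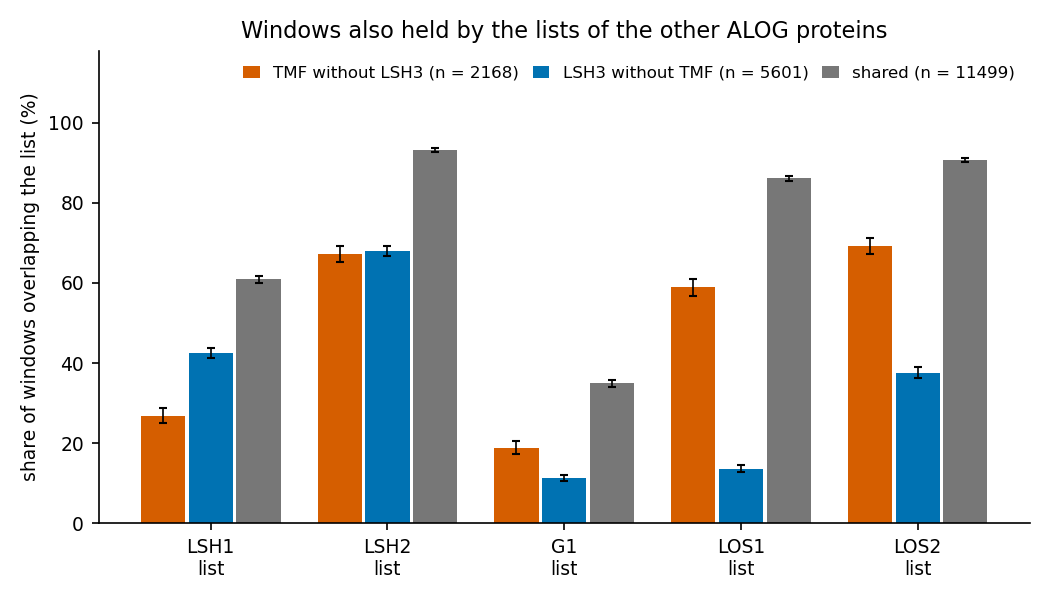
Share of windows (%, y axis) that overlap the list of each of the other 5 ALOG proteins (x axis), for windows of TMF alone, of LSH3 alone and shared windows, with 95% Wilson intervals. The LOS1 list shows the widest gap between TMF alone (58.9%) and LSH3 alone (13.6%).

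Combinations of lists show the same split. The commonest combination among TMF windows without LSH3 was LSH2, LOS1 and LOS2 with neither LSH1 nor G1, at 801 windows (36.9%), whereas LSH3 windows without TMF had it in 246 cases (4.39%). Among LSH3 windows without TMF the commonest was LSH1 and LSH2 alone, at 1294 windows (23.1%), which TMF windows without LSH3 had in 85 cases (3.92%). LSH2 was the only other list for 55 TMF windows without LSH3 (2.54%) and for 918 LSH3 windows without TMF (16.4%). Windows of all ALOG lists but one were rare in both directions. Among TMF windows without LSH3, 41 (1.89%) lacked LSH3 alone, and among LSH3 windows without TMF, 68 (1.21%) lacked TMF alone. Such a window must also be in G1, the shortest list, which held only 18.9% and 11.3% of these sets.

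The gene body share was also compared within combinations of LSH1 and the LOS proteins. Where a LOS protein but not LSH1 held the window, the gene body share was 65.0% for TMF without LSH3 (62.5 to 67.5%, n = 1427) and 75.8% for LSH3 without TMF (73.7 to 77.8%, n = 1658). Where LSH1 but no LOS protein held it, the shares were 86.5% (82.8 to 89.5%, n = 399) and 83.0% (81.2 to 84.7%, n = 1762), with overlapping intervals. With LSH1 and a LOS protein they were 77.6% (71.0 to 83.0%, n = 183) and 81.9% (78.7 to 84.8%, n = 614), and with neither 76.7% (69.6 to 82.6%, n = 159) and 82.3% (80.3 to 84.1%, n = 1567). LSH3 without TMF thus had the higher value in 3 of the 4 combinations, and the intervals were apart in the first one only. Windows with LSH2, LOS1 and LOS2 only were in gene bodies in 57.8% of cases for TMF without LSH3 (54.4 to 61.2%), 67.9% for LSH3 without TMF (61.8 to 73.4%) and 68.3% for shared windows (66.6 to 70.0%).

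At the level of genes, TMF and LSH3 mostly met the same ones. A gene was counted when a window centre lay in it or within 2000 bp on either side. By this count 13358 of 27444 protein-coding genes (48.7%) had windows of both proteins, and 12984 of these had at least 1 shared window. TMF windows without any LSH3 window marked 1122 genes (4.09%), and LSH3 windows without any TMF window marked 3040 (11.1%). Genes with TMF alone rarely had more than 1 window: 1008 had 1, 105 had 2 and 9 had 3. Genes with LSH3 alone reached 6 windows, with 2363 at 1, 528 at 2, 115 at 3, 30 at 4, 3 at 5 and 1 at 6. A window lay in the gene body itself in 439 of the 1122 genes of TMF alone and in 1361 of the 3040 genes of LSH3 alone. Neighbouring genes can share a window, and the 1122 genes rested on 863 different TMF windows and the 3040 on 2626 different LSH3 windows. Of those windows, 10 of TMF and 12 of LSH3 had a partner in the other list whose centre fell just outside the interval. Genes with a shared window often had unshared ones too: 1175 of the 12984 (9.05%) had further windows of TMF alone, 3451 (26.6%) of LSH3 alone, and 560 (4.31%) of each.

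Against these shares, 8 lists with 123 genes in all were read. Genes of the floral meristem and organ identity list, which includes the corepressor genes LUG and SEU, had windows of both proteins or of neither in this interval. Of its 21 genes 14 had windows of both, 0 had TMF alone and 0 had LSH3 alone, beside 48.7%, 4.09% and 11.1% of all genes. Among genes with any window both were present in 14 of 14, beside 76.2% of all protein-coding genes. Having both did not mean equal counts: LUG had 2 TMF and 6 LSH3 windows and SEU 3 and 6, while SEP2 had 3 and 2. In the gene body only, 1 of the 21 had TMF alone, 1 LSH3 alone and 7 both, beside 2.80%, 8.13% and 24.4% of all genes. LFY (AT5G61850), which specifies floral meristems, had 3 shared windows. Inside the gene, the TMF window spanned chromosome 5 from 24845011 to 24845210 and the LSH3 window 24845004 to 24845203, an offset of -7 bp, and the 2 in its flank had offsets of 5 and 1 bp. AP1 (AT1G69120), a MADS-box gene of floral meristem and sepal identity, had 2 shared windows, of which the one inside the gene spanned chromosome 1 from 25983607 to 25983806 for TMF and from 25983597 to 25983796 for LSH3. UFO (AT1G30950), an F-box partner of LFY, had 1 in its gene body with an offset of -3 bp. AP3 (AT3G54340), which specifies petals and stamens, had 1 shared window in its gene body (offset 10 bp) and in its flank 1 LSH3 window without TMF, on chromosome 3 at 20117994 to 20118193. At AG (AT4G18960), which specifies stamens and carpels, 1 TMF window touched 2 LSH3 windows in the flank.

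Organ boundary and KNOX/BELL genes were the list with the most genes of LSH3 alone. Of 17 genes 1 had TMF alone, 6 had LSH3 alone, 6 had both and 4 neither. Over all genes the shares in this interval were 4.09%, 11.1%, 48.7% and 36.2%. STM (AT1G62360), a KNOX homeobox gene required to keep the shoot meristem, contained 1 LSH3 window that LSH1 and LSH2 also held (chromosome 1, 23060162 to 23060361), and the nearest TMF window was 21224 bp away. CUC3 (AT1G76420), PAN (AT1G68640), a bZIP factor that limits floral organ number, and KNAT2 (AT1G70510) had 1 LSH3 window each in the gene body. CUC2 (AT5G53950) and LOB (AT5G63090), a founding gene of the LBD family, had theirs in the flank. CUC1 (AT3G15170), a NAC factor that acts redundantly with CUC2 in setting organ boundaries, went the other way, with 1 TMF window in its flank on chromosome 3 at 5112741 to 5112940 that LSH2, LOS1 and LOS2 also held. BOP1 (AT3G57130), which encodes the Arabidopsis counterpart of the BLADE-ON-PETIOLE partners of TMF, had 1 shared window in its flank (offset 2 bp), and its paralog BOP2 had none of either protein.

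The boundary gene count depended on the interval around the gene. With flanks of 3000 bp the list had 0 genes of TMF alone, 3 of LSH3 alone and 13 of both. Shared windows lay slightly farther out at CUC1 and CUC2, and TMF windows came into range at CUC3, PAN and KNAT2. The genes with neither also fell, from 4 with flanks of 2000 bp to 1, and some of these joined the genes with both. In this wider interval 3.83% of all genes had TMF alone, 11.0% LSH3 alone and 58.3% both. STM and LOB remained with LSH3 alone, and BOP2 joined them. With the gene body only, 0 of the 17 genes had TMF alone and 4 had LSH3 alone (CUC3, STM, PAN and KNAT2), where the shares of all genes were 2.80% for TMF alone and 8.13% for LSH3 alone.

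**Figure D4:**
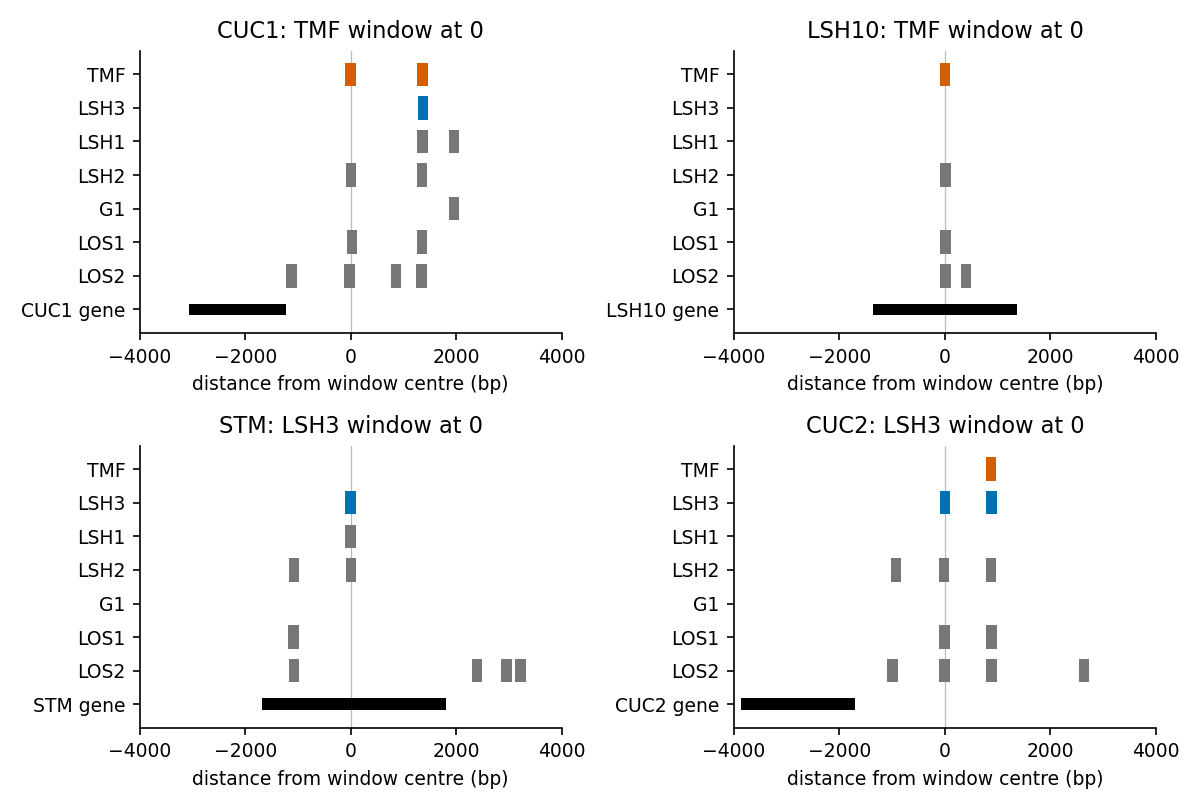
Windows of the 7 proteins (rows) at CUC1, LSH10, STM and CUC2 by distance in bp from the centre of the TMF or LSH3 window that lacks the other protein (x axis, that window at 0); the black bar is the gene. CUC1 and CUC2 each have a further window of both proteins beyond the 2000 bp flank, and STM and LSH10 have no second TMF or LSH3 window in the range shown.

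Of the 10 ALOG genes of Arabidopsis, 6 had windows of both proteins, 1 had TMF alone and 3 had neither. Over all genes these shares were 48.7%, 4.09% and 36.2%, so that counts of so few genes are not read as a property of the family. LSH3 itself (AT2G31160) contained 1 shared window, spanning chromosome 2 from 13278845 to 13279044 for TMF and from 13278843 to 13279042 for LSH3. LSH1 had 2 shared windows, and LSH4, LSH6 and LSH7 had 1 each with offsets of 21, -4 and -3 bp. At LSH2 1 TMF window touched 2 LSH3 windows. LSH10 (AT2G42610) contained a TMF window without LSH3 (chromosome 2, 17749052 to 17749251). It was also held by LSH2, LOS1 and LOS2, and the nearest LSH3 window was 5167 bp away. LSH5, LSH8 and LSH9 had no window of either protein.

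Most genes with any window had both proteins, in the remaining lists as over all genes, where 13358 of 17520 (76.2%) did. Flowering time genes with a window had both in 13 of 15 cases, and meristem maintenance and polarity genes in 9 of 10. For cytokinin genes with a window this was 11 of 15, for light signalling genes 9 of 11 and for housekeeping comparison genes 8 of 9. With genes without a window included, the counts in the same order were 13 of 19, 9 of 13, 11 of 17, 9 of 16 and 8 of 10. Over all protein-coding genes that share was 48.7%. TMF alone was seen at TOE3, an AP2-like gene related to floral repressors (2 windows), at AS1, a MYB gene of leaf development, at the type-A response regulator ARR7 and at the cytokinin oxidase CKX7. The ARR7 window was only 75 bp from an LSH3 window, and those of TOE3 were 217 and 4329 bp from one. At AS1 and CKX7 this gap was 5909 and 6530 bp. LSH3 alone was seen at LHY, a MYB factor of the circadian clock (3 windows, all in the gene body), the response regulator ARR6, the oxidase CKX3, the phytochrome PHYD (2 windows) and the phytochrome-interacting factor PIF3, and in the comparison list at PP2AA3, a scaffold subunit of protein phosphatase 2A. The interval mattered here too. With flanks of 3000 bp TOE3, ARR7 and CKX7 had both proteins, while AS1 kept TMF alone and LHY, ARR6, CKX3, PHYD, PIF3 and PP2AA3 kept LSH3 alone.

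LHY and its close paralog CCA1 (AT2G46830) differed in which protein had more windows; CCA1 was chosen for naming after its values were seen. CCA1 had 3 TMF windows and 1 LSH3 window, all in the gene body. The LSH3 window there met the TMF window on chromosome 2 at 19247489 to 19247688 with an offset of -47 bp, and the other 2 TMF windows were 21 and 122 bp from an LSH3 window. LHY (AT1G01060) had no TMF window and 3 LSH3 windows, on chromosome 1 at 33666 to 33865, 34826 to 35025 and 35289 to 35488.

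All 7 TMF windows at the 6 listed genes with TMF alone were held by LSH2, LOS1 and LOS2 and by no other list, a combination found in 36.9% of all TMF windows without LSH3. A single one of the 7, that of LSH10, was in a gene body, beside 70.9% of all TMF windows without LSH3. Of the 15 LSH3 windows at the 12 listed genes with LSH3 alone, LSH2 held 11, LSH1 5 and LOS2 5, beside 68.1%, 42.4% and 37.6% of all LSH3 windows without TMF. G1 held 2, LOS1 1 and no other list 2, beside 11.3%, 13.6% and 10.7%, and 11 of the 15 were in gene bodies, beside 80.6%. With so few windows these counts are not read as a property of the listed genes.

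**Figure D5:**
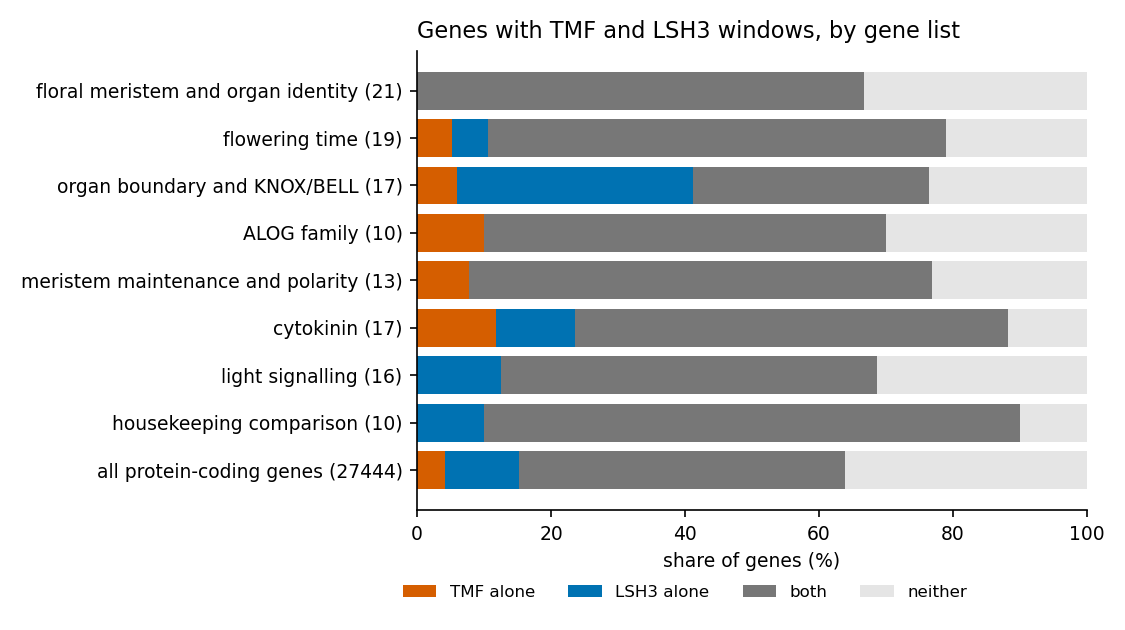
Share of genes (%, x axis) with windows of TMF alone, LSH3 alone, both or neither in the gene or within 2000 bp, for 8 gene lists and for all protein-coding genes (rows, number of genes in parentheses). LSH3 alone makes up 6 of 17 organ boundary and KNOX/BELL genes, against 11.1% of all genes, and 0 of 21 genes of the floral identity list.

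Genes with the most windows of 1 protein alone were few on the TMF side. With TMF alone the highest count was 3. EXT13 (AT5G35190), an extensin of the cell wall, contained all 3 of its windows (chromosome 5, 13434174 to 13434373, 13434534 to 13434733 and 13434911 to 13435110). The first and the last of them were held by all of the other 5 lists, so that LSH3 alone was missing there, and the nearest LSH3 window to any of the 3 was 5211 bp away. At AT2G22795 1 of 3 gene body windows, on chromosome 2 at 9698631 to 9698830, was likewise held by every list but LSH3. BGAL14 (AT4G38590), a beta-galactosidase, had 3 gene body windows, 2 of them also in LSH1, LSH2 and G1. PROT1 (AT2G39890), a proline transporter, had 3 windows whose only other holders were LOS1 and LOS2. CARAB-AK-LYS (AT5G14060), an aspartate kinase, AT5G11720, AT1G67190 and AT3G23450 also had 3 each; with flanks of 3000 bp AT1G67190 and AT3G23450 had both proteins.

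With LSH3 alone, MOS7 (AT5G05680), a nucleoporin needed for plant immunity, had 6 windows, 3 of them in the gene body. LSH1 and LSH2 held 3 of the 6, LSH2 alone 1 and no other list 2, and the TMF window nearest to any of them was 4386 bp away. MEK1 (AT4G26070), a MAP kinase kinase, AT2G37520 and RABE1b (AT4G20360), a chloroplast elongation factor Tu, had 5 each, and MEK1 had both proteins with flanks of 3000 bp. EBS (AT4G22140), a chromatin reader that delays flowering, had 4, all held by LSH1 and LSH2. AT1G04930 and AT1G22290 had 4 each. AT1G19880 had 4 as well, of which the one on chromosome 1 at 6906031 to 6906230 had a TMF partner centred just outside the interval.

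The genes with the most shared windows also had unshared ones. AT5G40450 and ESP (AT4G22970), the separase that cuts cohesin, had 8 shared TMF windows each and 1 further LSH3 window without TMF. SPK1 (AT4G16340), a guanine nucleotide exchange factor of cell shape, and ALA3 (AT1G59820), a phospholipid flippase, had 7 each, with 2 and 1 further LSH3 windows. GRV2 (AT2G26890), a DnaJ-domain protein of endosomes, had 7 shared windows, 2 of TMF alone and 2 of LSH3 alone within the same interval. No count per gene was corrected for gene length.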

How the data were processed

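The series' design text says that 3 ampDAP-seq replicates were made per protein and that the authors kept only peaks present in every replicate. The submitters' processing notes name Bowtie2, SAMtools and MACS2. Their versions and settings, the peak threshold and the build of the genome were not given in the sources used here. Each deposited list gives chromosome, start and end of windows (all on chromosomes 1 to 5, 200 bp wide) without score or count, so depth per sample is unknown.

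Groups came from sample titles. The members and gene lists were chosen with earlier results of these data known. Overlap needed 1 bp. Genes came from a RefSeq table of TAIR10.1, and all 123 listed genes matched. Since no source names the windows' build, only gene names and the nearness of genes to windows were taken from the table; alignment was checked by shifting windows by 1000 bp, which gave gene body shares of 67.8 and 68.2% for TMF (72.4% unshifted) and of 70.5 and 70.2% for LSH3 (75.3% unshifted). Coordinates are those of the windows, counted from 1. Named genes followed a rule: a fixed set (LFY, UFO, AP1, AP3, AG, BOP1, BOP2, CUC1 to CUC3, STM, LSH1 to LSH10), listed genes with 1 protein alone, and the genes with the most windows of TMF alone (8), LSH3 alone (8) or shared (5), ties broken by other lists holding the windows. Shares have 95% Wilson intervals and differences Newcombe intervals; neighbouring windows are not independent. The scripts (Python 3.11.15 with pandas 2.3.3, numpy 2.4.6 and scipy 1.17.1) were checked on simulated windows whose overlaps, offsets and genes were known. Planned motif analyses were not run, because no genome or promoter sequence was used here.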

Additional observations from a re-analysis of the deposited data

How the results depend on the processing

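Each list is 1 consensus without scores, so the limits set by depth and by the spread between experiments could not be measured. No paired analysis was possible because each protein has 1 list and no result comes from a test. Alternatives of the motif analysis were not run. The median offset of 8 bp, the counts of genes with 1 protein alone (769 to 1132 for TMF, 2231 to 3078 for LSH3) and the overlap shares, median offset and gene body shares without each chromosome in turn stayed within 1.5 times the count or within the 95% interval of the reported value. The share of TMF windows with LSH3 became 70.0% when centres had to lie within 20 bp and 85.5% when a gap of up to 200 bp was allowed. For LSH3 windows with TMF these settings gave 55.4% and 70.0%, an overlap of 100 bp gave 66.3%, and keeping only windows held by another list gave 69.9%. A stricter overlap rule can only lower these shares and a looser one only raise them. Counting any overlap with a gene gave gene body shares of 72.9% for TMF without LSH3, 82.7% for LSH3 without TMF and 74.9% for shared windows, and using all genes of the table gave 77.9%, 85.7% and 78.4%. In both settings LSH3 alone stayed highest. TMF alone was lowest but close to shared windows, and in the main count their intervals overlapped (68.9 to 72.8% and 71.8 to 73.5%).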
